A study of Rattus norvegicus with 9 samples.

Results

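The cytosolic ribosomal proteins were described in rat kidney after sham surgery, after ischaemia and reperfusion (I/R), and after the same injury with rapamycin. Members were the rows of the deposited FPKM table whose symbol was Rpl or Rps followed by a number and optional letters, or Rpsa, Rplp0, Rplp1 or Rplp2, with the S6 kinase genes left out. The rule found 86 rows among the 11235 named genes of that table and the 30454 genes of the count table, 49 of the large subunit and 37 of the small subunit. The 86 rows carried 82 distinct symbols, since Rpl21, Rpl22, Rpl35a and Rps13 were each listed at more than one place. Of 80 standard ribosomal protein genes of the cytosol, 69 were among the members by symbol. Rack1 and Fau carry other names, and Rpl7, Rpl27a, Rpl36, Rpl37a, Rpl38, Rpl41, Rps18 and Rps26 had no row by the rule. To enter the FPKM table a row had to reach 1 FPKM in 8 or more libraries, so a copy with fewer reads was not counted as a member. All 86 members passed the filter on low counts.

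Ribosomal proteins assemble with ribosomal RNA into the small subunit, which reads the messenger RNA, and the large subunit, which joins the amino acids. Their messenger RNAs begin with a C followed by a run of pyrimidines, the 5′ terminal oligopyrimidine tract, through which mTOR complex 1 and the RNA-binding protein Larp1 control their translation and storage. Rapamycin binds FKBP12 and inhibits mTOR complex 1. The kidney's tubular epithelium is rich in transport proteins and mitochondria, and ribosomal protein transcripts are abundant in it as in most tissues.

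The 9 libraries were poly(A) RNA of kidneys of wild-type Sprague-Dawley rats 6 to 8 weeks old, with 3 libraries per group and batch 1 for all. The groups were sham surgery without ischaemia, I/R without the drug, and I/R + rapamycin, called the rapamycin group from here on. Ischaemia lasted 45 min in both injured groups. The series design gave male rats, intraperitoneal rapamycin at 1 mg/kg per day and a clamp on the left renal artery, whereas the protocols of the samples listed rats of both sexes, gavage from the day before surgery, a dose of 1 or 2 mg/kg daily, and reperfusion for 3 or 7 days, so the sex, route, dose and time of the sequenced kidneys are unsettled. The labels number the replicates without saying that each was a separate animal, and p-values therefore measure the spread between these samples, which may be technical.

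Total counts ranged from 44582251 to 60538627 per library. The labels named kidney as the tissue and also renal tubular cells. All 10 proximal tubule markers were measured, at summed levels of 11357 to 15436 CPM (counts scaled to library size), and podocyte markers were present too, at 501 to 829 summed CPM. None of the 9 lymphocyte markers had a named row. Red blood cell markers (3 of 6 named) were at 245 to 2552 summed CPM in sham kidneys, 1242 to 3332 in I/R and 84.8 to 524 in I/R + rapamycin. The stress gene Fos ranged from 34.4 to 512 CPM among sham libraries, from 17.5 to 316 CPM among I/R libraries, and from 14.1 to 24.5 CPM with rapamycin. The part of these differences in the values of the ribosomal protein genes was not tested. In whole tissue, fewer cells of a type and less RNA per cell cannot be told apart.

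The pyrimidine tract could be looked for at the annotated start sites. RefSeq promoter sequences (GRCr8) were matched for 52 members, and 33 of them (63.5%) held a run of at least 8 C or T, on the gene's own strand, within 15 bases either side of the start. The share among all 33469 RefSeq promoters was 11.4%. For a member with several annotated promoters only that at the lowest coordinate was used, whereas the share over all counted every promoter. The longest run had a median of 9 bases in the members and 4 in all promoters. The lines below give the 15 bases before and the 15 bases after the start, with the longest pyrimidine run in capitals. The first 4 genes are shown because they carry a long run, and the others because theirs is short: Rps6 and Rpl36a of the ordinary ribosome, and the relatives Rpl7l1 and Rps27l.
Rps2 (chr10:14251833-14251862, + strand): CCTCTTCTTTTTCTTCgggaaaacacgtga
Rpl5 (chr14:1995211-1995240, - strand): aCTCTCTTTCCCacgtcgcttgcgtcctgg
Rps23 (chr2:23814502-23814531, + strand): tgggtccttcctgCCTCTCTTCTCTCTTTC
Rps15a (chr1:181860270-181860299, - strand): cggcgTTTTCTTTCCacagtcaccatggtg
Rps6 (chr5:106420526-106420555, - strand): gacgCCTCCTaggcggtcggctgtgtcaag
Rpl36a (chrX:102059434-102059463, + strand): ccgcctataaaCTTCCgttgctgctctagc
Rpl7l1 (chr9:21695703-21695732, + strand): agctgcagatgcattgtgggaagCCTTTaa
Rps27l (chr8:76443643-76443672, + strand): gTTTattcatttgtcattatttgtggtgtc
The run of Rps23 began 2 bases before the annotated start, and that of Rpl5 began 14 bases before it. The runs of Rpl5 and Rps15a ended before the annotated start, so by this annotation they lie outside the transcript. All but the last base of the Rps2 run also lay before the start. Whether a run is the tract of the transcript was not tested, so members with a long and a shorter run are not split by presence of the tract. A match is a description of these letters, and no match says only that the letters are not in the window. Other motifs were searched on both strands of the promoters, which span 250 bases before to 50 bases after the start. CTTCCG, the core that ETS-family factors bind, was in 53.8% of the members' promoters and 16.6% of all. AAGATGG, the core of the YY1 motif, was in 15.4% and 7.01%, GGGCGG in 59.6% and 33.1%, and the TATA-box letters TATAAA in 13.5% and 14.2%. CTTCCG can overlap the pyrimidine run, as in Rpl36a.

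Members differed widely in level. Per length, the highest means over the 9 libraries were those of Rps15 (516 FPKM), Rplp0 (467 FPKM) and Rpl19 (439 FPKM), and the lowest those of Rps12l3 (3.82 FPKM), Rps4y2 (4.48 FPKM) and the Rpl35a row of chromosome 11 (5.57 FPKM). Several low rows are copies. For 15 members the listed span equalled, within 2%, the transcript length that the ratio of counts to FPKM implied, so they hold no introns, as processed copies do, and 7 of the 15 carry a standard symbol, among them Rpl39, Rpl9, Rps10, Rps20 and the second rows of Rpl21 (chromosome 3) and Rpl22 (chromosome 4). RefSeq placed 12 members on another chromosome than the table did. The row named Rpl8 is typed as a pseudogene on chromosome 3 and is among those 12.

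Reads of one protein were split among such rows. In all, 181 rows of the FPKM table were described as a cytosolic ribosomal protein, naming 81 proteins, and 95 of them were not members. Rps20, a small subunit protein gene, was at 13.0 FPKM, and the row Rps20-ps10 outside the rule at 447 FPKM. Rpl9 was at 13.9 FPKM and Rpl9-ps30 at 323 FPKM. Rps27a, which encodes ubiquitin fused to a small subunit protein, was at 75.6 FPKM and its copy Rps27a-ps1 at 257 FPKM. How the counting assigned reads that fit more than one copy is not given in the sources used here, so values of single rows with near-identical copies are uncertain, and without a stated strand setting overlapping and antisense genes cannot be told apart.

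Ribosomal protein genes took the lowest share of counts in the injured, untreated kidneys. The 86 members held 1.67%, 1.81% and 1.65% of all counts in sham libraries 1 to 3, against 1.24%, 1.48% and 1.49% in the I/R libraries. With rapamycin the shares were 1.74%, 1.63% and 1.46%. Every I/R library was below every sham library, and the rapamycin group overlapped both. The group means were 1.71% ± 0.0886 (SD, n = 3) in sham, 1.41% ± 0.140 (SD, n = 3) in I/R and 1.61% ± 0.140 (SD, n = 3) in I/R + rapamycin. Leaving mitochondrially encoded genes out of the total gave 2.05% ± 0.0980 (SD, n = 3), 1.67% ± 0.146 (SD, n = 3) and 1.98% ± 0.185 (SD, n = 3).

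The same order showed in the typical member. The median over members of log2 CPM minus the gene's own mean was 0.05, 0.26 and 0.06 in the sham libraries, −0.43, −0.05 and −0.11 in I/R, and 0.20, 0.12 and −0.09 in I/R + rapamycin. I/R 1 was the lowest library and sham 2 the highest. In I/R 1, 81 of the 86 members were below their own mean, in I/R 3 76 and in I/R 2 58. In the rapamycin group the counts were 4, 12 and 68, so library 3 of that group lay with the I/R libraries. The first principal component of the members held 53.6% of their variance and had I/R 1 at its far end. The plot of deviations by library shows these shifts as movements of the whole cloud of genes.

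**Figure D1:**
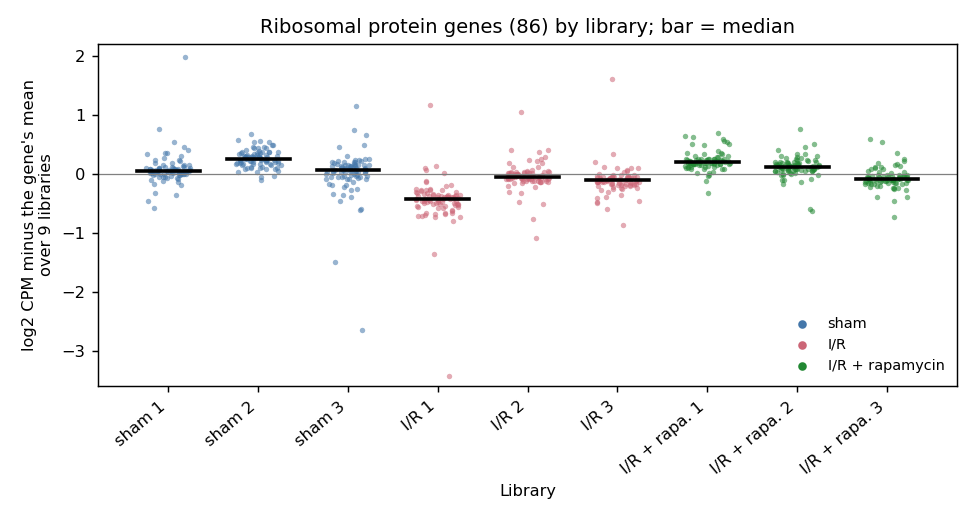
Each point is 1 of the 86 ribosomal protein genes in 1 library, the y axis is log2 CPM minus that gene's mean over the 9 libraries, and the bar is the median over genes. The medians of the I/R libraries run from −0.43 to −0.05, below the sham medians of 0.05 to 0.26, and I/R + rapamycin 3 (−0.09) lies among the I/R libraries.

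The first question was how injured, untreated kidneys differed from sham kidneys. Ribosomal protein transcripts of both subunits were fitted lower in I/R kidneys, and none passed the test singly. The fitted log2 fold change was below 0 for 83 of 86 members (49.3% of all 17335 genes tested), with a median of −0.32 and quartiles of −0.38 and −0.23, while the median over all genes was 0.00. In edgeR's quasi-likelihood test with Benjamini-Hochberg adjustment, 0 members were called at an adjusted p under 0.05 (0.0577% of all genes tested), and the lowest adjusted p among them was 0.266. At an unadjusted p under 0.05 there were 45 members lower (4.59% of all genes) and 1 higher (4.83% of all genes). In 49 members every I/R library was below every sham library (7.19% of all genes), and in 0 every one was above (7.43%). DESeq2 called 3 members, all lower: Rpl8, Rps15a and Rpl5 (1.49% of genes called in all).

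Large subunit members had a median log2 fold change of −0.32 and small subunit members of −0.31. Members whose start site held a long pyrimidine run had a median of −0.32 (33 genes) and those with a shorter run −0.28 (19 genes). The 15 members without introns had a median of −0.34 and the 71 with introns −0.32.

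Rpl5 and Rpl11 form a particle with 5S ribosomal RNA that can bind Mdm2 when it is not built into ribosomes. Rpl5 was at 467, 530 and 454 CPM in sham kidneys, 326, 382 and 376 CPM in I/R, and 487, 460 and 398 CPM in I/R + rapamycin. The I/R libraries lay below all others, and the log2 fold change against sham was −0.42 (SE 0.11, adjusted p = 0.293 by edgeR, 0.0216 by DESeq2). Rpl11 was at 242, 280 and 234 CPM in sham kidneys, 185, 232 and 218 CPM in I/R, and 277, 261 and 230 CPM with rapamycin. Its sham and I/R libraries did not overlap, though sham 3 and I/R 2 were close (log2 fold change −0.25, SE 0.12).

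Among small subunit genes, Rps15a was at 166, 169 and 168 CPM in sham kidneys, 98.3, 141 and 103 CPM in I/R, and 168, 156 and 129 CPM in I/R + rapamycin. Sham libraries lay within a narrow band and the I/R libraries well below it (log2 fold change −0.56, SE 0.14, adjusted p = 0.276 by edgeR, 0.0232 by DESeq2). Summed with its copy Rps15al4 after the values were seen, the counts came to 174, 183 and 173 CPM in sham kidneys. They were 127, 150 and 142 CPM in I/R and 179, 169 and 140 CPM with rapamycin. The summed log2 fold change in I/R against sham was −0.34 (SE 0.11, adjusted p = 0.353 by edgeR). Rps23, which sits at the decoding centre, was at 178, 199 and 167 CPM in sham kidneys, 124, 153 and 138 CPM in I/R, and 181, 162 and 150 CPM with rapamycin. All I/R libraries were below all sham libraries, and I/R 2 and rapamycin 3 were about level.

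Rps6, the target of the S6 kinases downstream of mTOR complex 1, was at 443, 533 and 464 CPM in sham kidneys, 304, 395 and 392 CPM in I/R, and 481, 447 and 384 CPM with rapamycin. Its I/R libraries lay below sham (log2 fold change −0.40, SE 0.14, adjusted p = 0.400 by edgeR), and rapamycin 3 lay within the I/R range. Rpsa, also known as the laminin receptor, was at 720, 814 and 837 CPM in sham against 643, 746 and 677 CPM in I/R, which overlapped. Rps3, which also has a role in DNA repair, had non-overlapping groups (log2 fold change −0.31, SE 0.11). Rpl13a, a protein that can leave the ribosome to repress inflammatory messages, was at −0.32 (SE 0.15). Its sham 3 (359.4 CPM) and I/R 3 (359.1 CPM) were about level, and in FPKM they overlapped (120.8 and 124.6). The 3 rows of this protein, summed after the values were seen, overlapped too (sham 3 372 CPM, I/R 2 375 CPM). The stalk proteins, which recruit translation factors, were fitted at −0.26 for Rplp0, −0.21 for Rplp1 and −0.30 for Rplp2 on the log2 scale, and none of them was called.

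The Rpl8 row, a pseudogene copy of a large subunit gene, was at 42.0, 38.3 and 51.8 CPM in sham kidneys, 23.8, 28.2 and 27.7 CPM in I/R, and 26.3, 40.7 and 27.1 CPM in I/R + rapamycin. It had the smallest p of all members (log2 fold change −0.73, SE 0.18, adjusted p = 0.266 by edgeR, 0.0171 by DESeq2), with no overlap between I/R and sham. Rpl36a was at 70.8, 80.6 and 71.3 CPM in sham kidneys, 42.3, 60.8 and 54.5 CPM in I/R, and 70.5, 64.0 and 54.1 CPM with rapamycin, and its rapamycin libraries too were all below sham.

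Only 3 members were fitted above 0 (50.7% of all genes). Rps15al4, an intronless copy related to Rps15a, was at 8.54, 14.1 and 4.56 CPM in sham against 28.8, 8.99 and 39.1 CPM in I/R, with I/R 2 inside the sham range (log2 fold change 1.50, SE 0.57, adjusted p = 0.492 by edgeR). Its sum with Rps15a, given above, was fitted below 0. Rpl22l1, a relative of Rpl22, was at 30.4, 34.97 and 20.8 CPM in sham against 21.2, 42.0 and 34.1 CPM in I/R. Rps27l, a relative of Rps27 known as a p53 target, was at 19.7, 25.7 and 19.7 CPM in sham against 14.2, 23.5 and 28.6 CPM in I/R. Both pairs of groups overlapped, and both fitted values (0.18 and 0.02 on the log2 scale) changed sign when single libraries were left out.

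The parent genes of these relatives were fitted below 0 and were not called. Rps27, a small subunit gene with a long pyrimidine run, was at 189, 229 and 179 CPM in sham kidneys, 135, 167 and 147 CPM in I/R and 205, 192 and 164 CPM with rapamycin (log2 fold change I/R against sham −0.41, SE 0.13). The Rpl22 row with introns, on chromosome 5, was at 73.7, 84.7 and 72.2 CPM in sham kidneys, 55.3, 67.4 and 64.6 CPM in I/R and 76.4, 78.5 and 68.1 CPM with rapamycin. Neither pair of sham and I/R groups overlapped, and no test of the difference between a gene and its relative was run. The Rps2 row also stood off the common pattern, at 218, 281 and 275 CPM in sham against 274, 218 and 237 CPM in I/R, with overlapping groups. Counts of all 3 rows described as this protein, summed after the values were seen, were 353, 437 and 376 CPM in sham kidneys. In I/R they were 321, 346 and 341 CPM, without overlap (log2 fold change −0.21, SE 0.11).

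**Figure D2:**
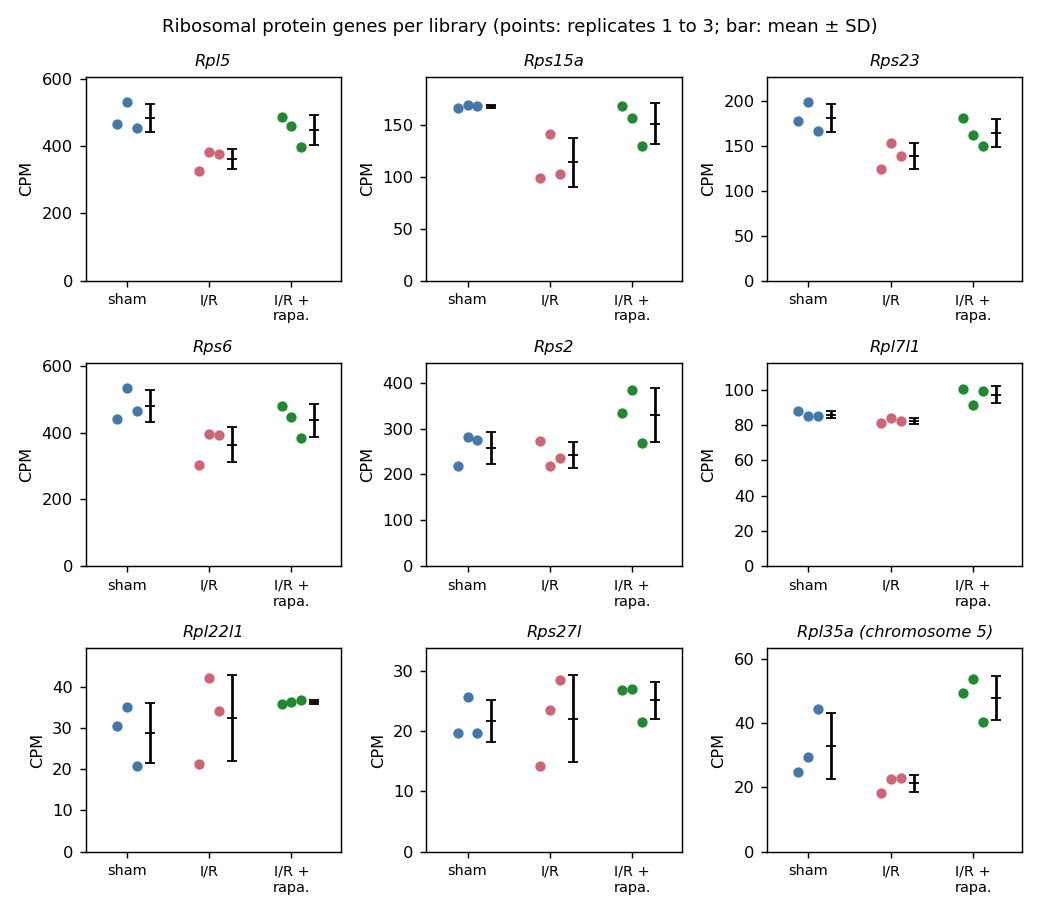
CPM (y axis, from 0) of 9 ribosomal protein genes in each library by group, with points for replicates 1 to 3 and the mean ± SD (n = 3) to their right. Rpl5, Rps15a, Rps23 and Rps6 have all I/R points below all sham points, whereas Rps2, Rpl22l1 and Rps27l overlap, and Rpl35a (chromosome 5) has its rapamycin points at 40.3 to 53.8 CPM against 18.2 to 22.9 CPM in I/R.

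Single libraries changed the size of the I/R difference. Without I/R 1 the median was −0.22 with 17 members lower at an unadjusted p under 0.05, and without sham 2 it was −0.24 with 15. The share of all genes lower at that p was counted only in the main fit (4.59%). Ribosomal protein transcripts are short, with a median implied length of 1018 bases against 2843 for all named genes, and longer genes had higher log2 fold changes (Spearman rho 0.304 over 11232 genes and 0.157 over the 86 members, a description). With a length term per library the median of members was −0.20, with 79 below 0. The part of length in the result was not otherwise tested.

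The second question was how injured kidneys differed with and without rapamycin. The comparison uses the same I/R libraries as the comparison above, so low I/R values enter both, and their values are only set side by side. Most ribosomal protein genes were fitted higher with rapamycin: 84 of 86 were above 0 (50.8% of all genes), with a median log2 fold change of 0.26 and quartiles of 0.19 and 0.31, against a median of 0.01 for all genes. In edgeR's test 0 members were called (0.127% of all genes), and the lowest adjusted p was 0.0818. At an unadjusted p under 0.05, 31 members were higher (7.11% of all genes) and 0 lower (9.14%). In 22 members every rapamycin library was above every I/R library (11.8% of all genes), and in 0 every one was below (12.8%). DESeq2 called 2, both higher: the Rpl35a row of chromosome 5 and Rpl7l1 (4.43% of genes called in all).

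The medians were 0.26 for the large subunit and 0.27 for the small, and 0.27 and 0.24 for members with a long and a shorter pyrimidine run. The curves of fitted fold changes show the members' whole distribution displaced to the left in I/R against sham, to the right in rapamycin against I/R, and close to that of all genes in rapamycin against sham.

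**Figure D3:**
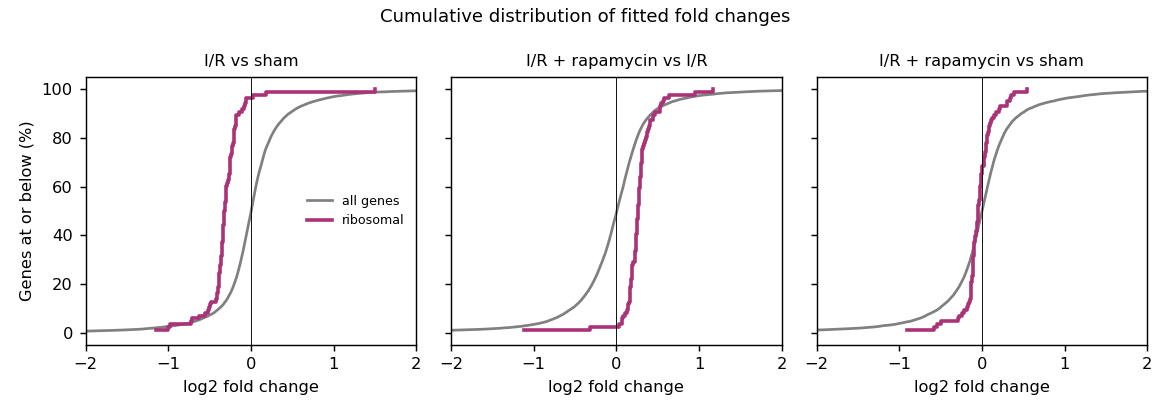
Share of genes (y axis, percent) at or below a fitted log2 fold change (x axis, shown from −2 to 2) for the 86 ribosomal protein genes (purple) and all 17335 genes tested (grey), in the 3 comparisons. The members' medians are −0.32, 0.26 and −0.04, and the grey curve passes its middle at about 0 in each.

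The Rpl35a row of chromosome 5, for a large subunit protein, had the smallest p. It was at 24.7, 29.4 and 44.3 CPM in sham kidneys, 18.2, 22.7 and 22.9 CPM in I/R, and 49.2, 53.8 and 40.3 CPM with rapamycin. The rapamycin libraries were all above the I/R libraries and overlapped sham only through sham 3 (log2 fold change against I/R 1.17, SE 0.21, adjusted p = 0.0818 by edgeR, 1.72e-05 by DESeq2). Without sham 3, which changes the shared spread, edgeR gave an adjusted p of 0.0201. The other Rpl35a row, on chromosome 11, was at 13.7, 15.1 and 17.4 CPM in sham kidneys, 0.953, 13.6 and 8.56 CPM in I/R and 15.6, 13.7 and 15.6 CPM with rapamycin, so that I/R 1 alone lay far below. RefSeq gave no place for either row. The counts of all 5 rows described as this protein, summed after the values were seen, came to 47.0, 54.5 and 77.2 CPM in sham kidneys, 26.4, 43.5 and 39.1 CPM in I/R, and 81.4, 84.4 and 70.1 CPM with rapamycin.

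Rpl7l1, a relative of Rpl7 that takes part in building the large subunit, was at 88.1, 84.7 and 84.7 CPM in sham kidneys, 80.8, 83.9 and 82.2 CPM in I/R, and 100, 91.4 and 99.3 CPM with rapamycin. Its rapamycin libraries were above all 6 others (log2 fold change against I/R 0.24, SE 0.07, adjusted p = 0.172 by edgeR, 0.0488 by DESeq2). Rps2 was at 334, 385 and 269 CPM with rapamycin, and only library 3 lay within the range of I/R (log2 fold change 0.44, SE 0.15). Rps4y2, a low relative of Rps4x, was at 3.22, 3.90 and 3.42 CPM in I/R and 6.40, 5.12 and 4.82 CPM with rapamycin, without overlap. Rps4x, its abundant X-linked relative, was at 300, 331 and 306 CPM in sham kidneys, 226, 278 and 267 CPM in I/R and 340, 328 and 285 CPM with rapamycin, also without overlap between the injured groups.

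Only 2 members were fitted below 0 against I/R. Rps15al4 was at 11.7, 12.7 and 11.1 CPM with rapamycin, inside the range of I/R (8.99 to 39.1 CPM). Summed with Rps15a, the log2 fold change against I/R was 0.22 (SE 0.11). Rps27a was at 95.7, 114 and 91.6 CPM in sham kidneys, 30.4, 160 and 66.6 CPM in I/R and 78.1, 69.3 and 59.4 CPM with rapamycin, and the I/R libraries spanned both other groups. Summed with its copy Rps27a-ps1, the S27a rows were at 262, 308 and 284 CPM in sham kidneys, 180, 249 and 236 CPM in I/R and 291, 272 and 227 CPM with rapamycin, with I/R 2 the highest of its group but below every sham library.

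With the length term the median was 0.07, with 61 members above 0 and 4 higher at an unadjusted p under 0.05, and over all genes longer ones had lower log2 fold changes (Spearman rho −0.483 over 11232 genes and −0.148 over the 86 members, a description). The count of 31 fell to 5 when I/R 1 was dropped, to 4 for rapamycin 1 and to 6 for rapamycin 2. Dropping I/R 3 gave 20, I/R 2 gave 39 and rapamycin 3 gave 49. The median stayed between 0.17 and 0.34. Counts of 4 to 6 among 86 members are no larger a share than the 7.11% of all genes higher in the main fit. The share of all genes was not counted in the other fits, so an excess of members there was not tested.

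The last question was how treated kidneys compared with sham kidneys, which also served in the first comparison. Few ribosomal protein genes stood apart in the main fit: 58 members were fitted below 0 (49.8% of all genes) and 28 above (50.2%), with a median log2 fold change of −0.04. In edgeR's test 0 members were called (0.156% of all genes), with a lowest adjusted p of 0.262, and DESeq2 called 0 (3.14% of genes called in all). At an unadjusted p under 0.05, 2 were lower (7.75% of all genes), Rpl8 and Rpl12, and 3 higher (6.06%), the Rpl35a row of chromosome 5, Rpl7l1 and Rps2. The groups did not overlap for 2 members lower (9.65% of all genes), Rpl36a and Rps27a, and 2 higher (9.69%), Rpl7l1 and Rpl22l1.

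Rpl12, a large subunit protein near the stalk base, was at 248, 233 and 313 CPM in sham kidneys, 208, 210 and 219 CPM in I/R and 243, 214 and 192 CPM with rapamycin. In this row the rapamycin values lay with I/R rather than above it (log2 fold change against sham −0.29, SE 0.13, adjusted p = 0.348 by edgeR). A copy outside the rule, LOC102555453, was at 204 FPKM, against 182 FPKM for Rpl12. All 4 rows described as this protein, summed after the values were seen, were at 391, 396 and 434 CPM in sham kidneys. The sum was 289, 345 and 341 CPM in I/R and 387, 369 and 310 CPM with rapamycin (log2 fold change against I/R 0.13, SE 0.11). Rpl22l1 was at 35.8, 36.4 and 36.7 CPM with rapamycin, just above the highest sham library. The median of this comparison crossed 0 when a library was left out: it was 0.01 without sham 2, 0.03 without rapamycin 3 and −0.11 without rapamycin 1. It was −0.11 with the length term and −0.08 with library totals in place of TMM factors. The length term also changed the counts: 69 members were below 0, with 17 lower and 0 higher at an unadjusted p under 0.05 by edgeR. With the replicate block and the length term, 70 were below 0, with 10 lower and 0 higher. The share of all genes lower at that p was counted only in the main fit (7.75%), so these counts have no background from their own fits.

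Members also differed in how closely replicates agreed. The SD of log2 CPM within groups had a median of 0.18 over the 71 members with introns and 0.32 over the 15 without, against 0.22 over all genes tested. The 11 members with introns in the count range of the intronless rows had a median of 0.25. The widest were Rps12l3 (1.41), at 5.12, 1.77 and 0.200 CPM in sham kidneys, the Rpl35a row of chromosome 11 (1.19), Rps15al4 (0.80), Rps27a (0.71) and Rpl30l2 (0.57). Rpl30l2, an intronless copy related to Rpl30, was at 45.7, 56.9 and 79.6 CPM in sham kidneys, 21.7, 40.7 and 19.5 CPM in I/R and 52.0, 23.6 and 21.6 CPM with rapamycin, and its log2 fold change of −1.15 was the lowest in I/R against sham. Summed with the Rpl30 row after the values were seen, the counts were 159, 178 and 152 CPM in sham kidneys. In I/R the sum was 104, 136 and 127 CPM (log2 fold change −0.42, SE 0.12). The tightest was Rpl7l1 (0.05), followed by the intronless Rpl21 row of chromosome 3 (0.06), at 17.7, 19.8 and 19.1 CPM in sham kidneys, 15.1, 15.8 and 15.5 CPM in I/R and 17.6, 18.3 and 17.1 CPM with rapamycin.

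**Figure D4:**
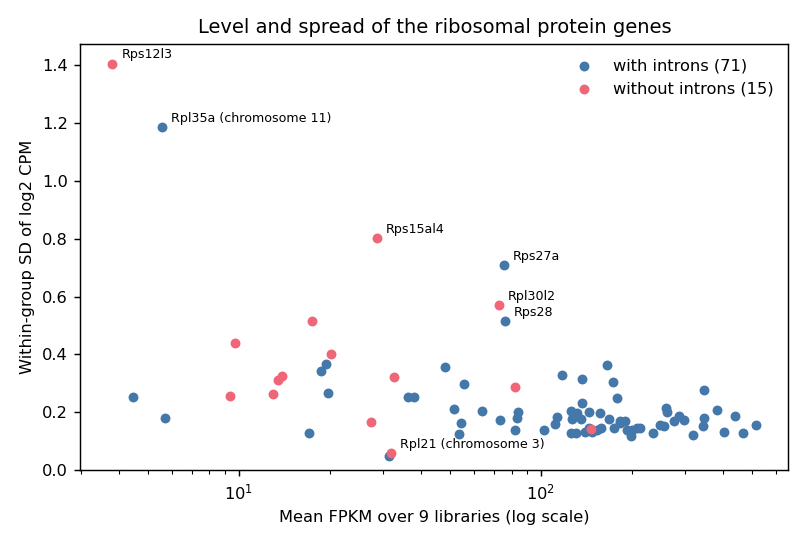
Mean FPKM over the 9 libraries (x axis, log scale) against the SD of log2 CPM within groups (y axis) for each of the 86 ribosomal protein genes, coloured by whether the row holds introns. Most members lie near the medians of 0.18 with introns and 0.32 without, and Rps12l3 and Rpl35a (chromosome 11) lie highest at 1.41 and 1.19.

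Other genes of protein synthesis were counted from lists. Among 26 tested translation factors and other genes with a pyrimidine tract, 25 were fitted below 0 in I/R against sham (median −0.24, 10 lower at an unadjusted p under 0.05, which 4.59% of all genes were) and 20 above 0 in rapamycin against I/R (median 0.16, 2 higher and 1 lower, against 7.11% and 9.14% of all genes). Rack1, a scaffold on the small subunit, was at 288, 325 and 307 CPM in sham kidneys, 216, 259 and 257 CPM in I/R and 315, 288 and 266 CPM with rapamycin, with every I/R library below all others. Eef1a1, the elongation factor that carries aminoacyl-tRNA, was at 3421, 3753 and 4326 CPM in sham kidneys, 2743, 3368 and 3383 CPM in I/R and 2917, 3030 and 2705 CPM with rapamycin (log2 fold change against sham −0.41, SE 0.13, adjusted p = 0.220 by edgeR). Of 71 ribosome assembly genes, 61 were below 0 in I/R against sham (median −0.12) and 54 above 0 with rapamycin against I/R (median 0.09).

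Of the 24 tested S6 kinase and translation control genes, 13 were above 0 in I/R against sham (median 0.01) and 11 in rapamycin against I/R (median −0.06, 2 higher and 6 lower at an unadjusted p under 0.05, against 7.11% and 9.14% of all genes). Larp1, the protein that binds pyrimidine tracts, was at 66.5, 59.3 and 79.4 CPM in sham kidneys, 66.1, 67.9 and 68.3 CPM in I/R and 49.4, 53.1 and 57.8 CPM with rapamycin, where every library was below all others (log2 fold change against I/R −0.34, SE 0.11, adjusted p = 0.191 by edgeR). Mitochondrial ribosomal proteins, which translate the mitochondrion's own messages, had medians of −0.16 in I/R against sham and 0.27 in rapamycin against I/R (72 of 72 above 0 and 38 higher at an unadjusted p under 0.05, against 50.8% and 7.11% of all genes), and 0.12 against sham, where the cytosolic members were at −0.04. Nuclear oxidative phosphorylation genes had medians of −0.11, 0.26 and 0.14 over 73 genes. No gene of these 5 lists was called by edgeR in any comparison. DESeq2 called 2 of the genes with a pyrimidine tract and 1 ribosome assembly gene lower in rapamycin against sham (3.14% of genes called in all), and 1 mitochondrial ribosomal protein higher in rapamycin against I/R (4.43%). Differences between the lists were not tested, and medians of these 5 lists with the length term were not taken.

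**Figure D5:**
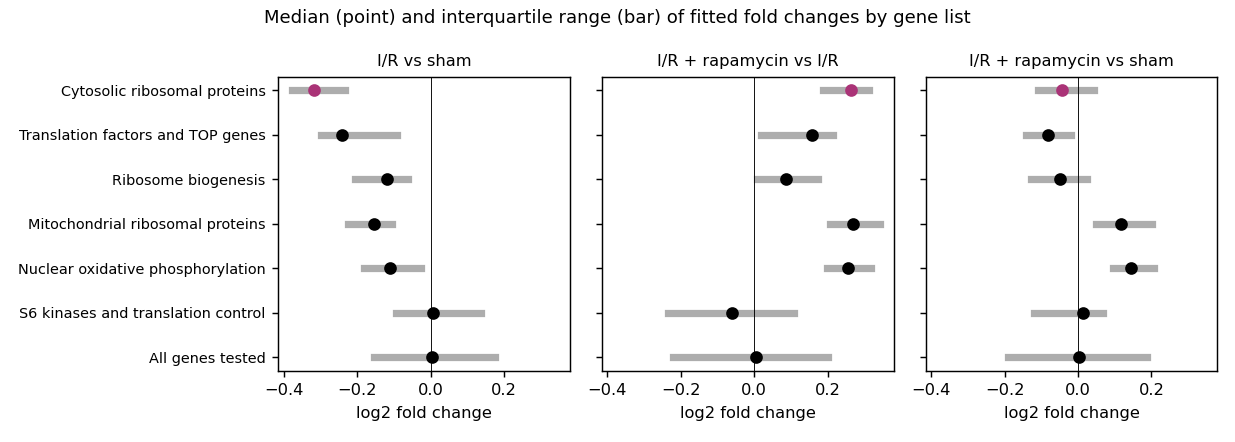
Median (point) and interquartile range (bar) of fitted log2 fold changes (x axis) of each gene list and of all genes tested, in the 3 comparisons. Cytosolic ribosomal proteins are at −0.32, 0.26 and −0.04, and mitochondrial ribosomal proteins at −0.16, 0.27 and 0.12.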

How the data were processed

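The authors deposited raw read counts per gene, per the file headers. They also deposited FPKM values with gene symbols, for the genes that reached 1 FPKM in 8 or more libraries. Per the submitters' processing notes, HISAT2, StringTie, cutadapt, DESeq2 and Rnor_6.0 were used, with no tool versions. Strand setting, annotation and read assignment: not given in the sources used here. Positions listed in the tables do not settle the build and are not printed.

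Counts of all 9 libraries were fitted in R 4.3.3 with edgeR 4.0.16 (TMM factors, default filter on low counts, robust quasi-likelihood test, no covariates), with Benjamini-Hochberg adjustment over 17335 genes and a threshold of 0.05. CPM use TMM-scaled totals. An SE was taken as the size of the log2 fold change over the root of its F statistic. Replicates of a group differed in counts by a chi-square per degree of freedom of 35.4 to 140, so none was a copy. The script was tested on simulated data. Total counts of 44582251 to 60538627 leave the spread between libraries, not counting error, as the limit for most members.

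Members and lists were chosen with earlier results of these data known. Named members were the 4 with the smallest p in each direction, the 3 highest and 3 lowest by FPKM, paralogs with their parent genes, 5S particle and stalk genes, Rps6, Rps2, Rps3, Rpl10, Rpl13a and Rpsa, and up to 5 on the other side of 0. Rps23, Rps27, Rpl21, Rpl30l2, Rps20, Rpl9 and the copies outside the rule were named after their values were seen. Some genes are not reported here by name. Alternatives were DESeq2 1.42.0, other scaling factors and filters, the FPKM table's genes, the 6 libraries compared, a replicate block, a length term, limma 3.58.1 on log2(FPKM + 1) and log2(FPKM + 0.1), other thresholds and libraries left out.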

Additional observations from a re-analysis of the deposited data

How the results depend on the processing

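Medians kept their sign in I/R against sham (−0.38 to −0.22 with 1 library left out) and in rapamycin against I/R (0.17 to 0.34), and crossed 0 in rapamycin against sham (−0.11 to 0.03). In rapamycin against I/R the median was 0.0691 with the length term and 0.0569 with the replicate block and the length term. In deviations from group means, same-numbered libraries correlated at −0.19 to 0.13, and 2 of 9 correlated best with their own number. With 3 libraries per group, these correlations cannot decide whether the replicate numbers pair libraries. With the replicate block alone, medians were −0.32, 0.27 and −0.04 with 0 members called. Calls other than 0 came from DESeq2 (3 in I/R against sham and 2 in rapamycin against I/R) and, in rapamycin against I/R, from an adjusted p under 0.1 (1), from the fit without I/R 1 and sham 3 together (1, and 1 in rapamycin against sham) and from libraries left out in turn (0 to 1); each single call was the Rpl35a row of chromosome 5. On log2(FPKM + 1) 13 members were higher at an unadjusted p under 0.05 in rapamycin against I/R, with the share of all genes not counted in that fit.

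Of 1514 alternative values of named members, 1468 kept sign and side of the threshold, 8 passed it and 38 changed sign. Changes of sign in I/R against sham, with 1 library left out, were within −0.0527 to 0.40 for Rpl22l1, −0.21 to 0.26 for Rps27l, −1.52 to 0.29 for Rps12l3, −0.37 to 0.11 for Rpl36al and −1.05 to 0.17 for Rps27a. Rps27l was at −0.00207 on log2(FPKM + 0.1), Rps2 at 0.0626 with the length term and 0.0579 with block and length, Rpl36al at 0.0122 with block and length, and Rps27a at 0.11 without I/R 1 and sham 3. In rapamycin against I/R the ranges with 1 library left out were −0.72 to 0.51 for Rps27a, −0.0807 to 0.18 for Rpl10, −0.0672 to 0.39 for Rpl22l1, −0.0507 to 0.38 for Rpl36al and −0.0537 to 0.41 for Rps27l. With the length term Rps15 was at −0.0489, Rplp0 at −0.0276, Rpl10 at −0.17, Rpl36a at −0.00531, Rpl36al at −0.0955, Rplp2 at −0.0689 and Rps27l at −0.0167. With block and length they were at −0.0493 (Rps15), −0.0263 (Rplp0), −0.16 (Rpl10), −0.00385 (Rpl36a), −0.11 (Rpl36al) and −0.0684 (Rplp2). Without I/R 1 and sham 3, Rpl10 was at −0.0806, Rpl22l1 at −0.0671, Rpl36al at −0.0507 and Rps27l at −0.0537. The cause was not tested.

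Summing the rows of each protein (73 proteins, medians −0.31, 0.27 and −0.05) and keeping only members with introns on their RefSeq chromosome (−0.31, 0.26 and −0.05) were added after the data were seen. RefSeq protein length was not run as a measure of length. Members under 10 CPM have few reads, and their single values are the least certain.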

Other observations

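The 95 rows described as a cytosolic ribosomal protein but not members had median log2 fold changes of −0.31 in I/R against sham, 0.31 in rapamycin against I/R and −0.04 in rapamycin against sham, and edgeR called none of them (DESeq2 called 2 in rapamycin against I/R). At an unadjusted p under 0.05, 22 were lower in I/R against sham (4.59% of all genes) and 18 higher in rapamycin against I/R (7.11% of all genes).

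Of 21 genes tied to the surveillance of unassembled ribosomal proteins, 9 were fitted above 0 in I/R against sham (median −0.03). Cdkn1a, the p53 target that halts the cell cycle, had log2 fold changes of −0.66 (SE 0.24) in rapamycin against I/R and −0.93 (SE 0.24) against sham, with adjusted p = 0.234 and 0.161 in edgeR's test. Tnpo1, an importin that brings ribosomal proteins into the nucleus, was at −0.55 (SE 0.15, adjusted p = 0.149) in rapamycin against I/R. All 6 podocyte markers were fitted below 0 in I/R against sham (median −0.32, summed levels of 794 to 829 CPM in sham and 526 to 763 CPM in I/R), and all 8 collecting duct markers were too (median −0.28, 1091 to 1108 CPM and 880 to 1005 CPM). All 5 thick limb markers were fitted above 0 (median 0.22), at summed levels of 2629 to 2860 CPM in sham and 2391 to 4438 CPM in I/R. Of all genes, 49.3% were fitted below 0. Markers of other cells, except red blood cells (3 of 3 above 0), went both ways in I/R against sham. Above 0 were 7 of 10 proximal tubule, 1 of 3 distal convoluted tubule and 2 of 6 endothelial markers. So were 4 of 6 fibroblast or pericyte, 6 of 8 macrophage and 1 of 2 cycling cell markers. EdgeR called none of these markers. DESeq2 called 1 podocyte marker lower in I/R against sham (1.49% of genes called in all). In rapamycin against sham it called 1 podocyte, 1 collecting duct and 1 distal convoluted tubule marker lower (3.14%). Of the surveillance genes it called 1 lower in rapamycin against I/R (4.43%) and 1 lower in rapamycin against sham. With rapamycin the podocyte sum was 501 to 713 CPM. The part of these markers in the ribosomal protein values was not tested.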
